A study of Mus musculus with 4 samples.

Results

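Endothelial cells line blood vessels, and 10 genes that mark these cells or build the contacts between them were read in RNA of cultured mouse tissue, the aorta-gonad-mesonephros region, which is the embryonic site at which blood stem cells arise from the wall of the aorta. The genes are Cdh5, Pecam1, Cldn5, Esam, Emcn, Eng, Ramp2, Robo4, Nos3 and Sox18. They were listed by name, from known endothelial biology, though with earlier results of these data known. Each was found as 1 row of the count tables, so that 10 of 49997 rows are described here. The tissue came from C57BL/6J embryos of the stages E10.5 or E11.5 and was cultured for 48 hours at the interface of gas and liquid, in MyeloCult medium with hydrocortisone. The 2 untreated libraries had no further agent, and the 2 CCCP libraries came from explants kept with 5 µM CCCP for the same 48 hours. CCCP is a protonophore, which carries protons across the inner mitochondrial membrane and so dissipates its potential. The comparison asks how the RNA of the explant differs after culture with this agent. The number of embryos per library, the day of each library and a vehicle for the untreated explants are not given in the sources used here, so p-values measure the spread between these libraries, which may be technical. The labels name embryonic blood stem cells as the cell type, while the extraction protocol names whole explants.

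Endothelial cells are joined by adherens junctions, whose cadherin is VE-cadherin (Cdh5), and by tight junctions, whose main endothelial claudin is claudin-5 (Cldn5). Blood cells leave the aortic wall when haemogenic endothelial cells loosen these contacts, round up and enter the lumen. ETS and SoxF transcription factors drive many endothelial genes, often from short promoters and nearby enhancers.

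The promoters below show the sequence just before the transcript start of the genes that the RefSeq promoter table (GRCm38.p6, the same assembly as mm10) holds, which is 4 of the 10. Each line gives 250 bases on the plus strand, 5′ to 3′, and capitals mark the ETS cores AGGAA and CGGAA read on either strand.
Cldn5 (chr16:18776597-18776846): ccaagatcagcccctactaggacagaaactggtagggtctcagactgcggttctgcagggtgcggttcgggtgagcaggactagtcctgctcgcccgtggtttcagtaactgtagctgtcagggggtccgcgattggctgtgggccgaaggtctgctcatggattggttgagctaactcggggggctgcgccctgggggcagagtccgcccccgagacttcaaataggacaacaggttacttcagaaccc
Emcn (chr3:137340828-137341077): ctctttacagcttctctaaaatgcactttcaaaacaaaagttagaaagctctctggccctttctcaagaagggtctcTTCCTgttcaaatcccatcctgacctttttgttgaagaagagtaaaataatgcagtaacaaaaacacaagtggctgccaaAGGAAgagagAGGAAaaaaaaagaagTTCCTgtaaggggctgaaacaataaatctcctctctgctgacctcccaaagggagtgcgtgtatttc
Eng (chr2:32646345-32646594): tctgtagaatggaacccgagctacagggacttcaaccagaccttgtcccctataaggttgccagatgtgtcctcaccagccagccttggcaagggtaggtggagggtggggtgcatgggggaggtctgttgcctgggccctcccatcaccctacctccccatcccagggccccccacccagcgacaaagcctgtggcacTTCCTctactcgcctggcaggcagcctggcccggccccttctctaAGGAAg
Robo4 (chr9:37401722-37401971): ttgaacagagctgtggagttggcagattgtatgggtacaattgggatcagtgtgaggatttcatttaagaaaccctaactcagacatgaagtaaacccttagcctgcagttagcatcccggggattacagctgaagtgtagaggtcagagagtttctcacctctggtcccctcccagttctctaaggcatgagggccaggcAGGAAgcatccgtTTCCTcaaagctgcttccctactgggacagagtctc
An ETS core lay in 3 of the 4 promoters, all of them AGGAA, against 71.4% of the 27025 promoters of the same length. Emcn held 4 cores, and Eng and Robo4 held 2 each, while the letters of neither core occur in the window of Cldn5. The Sox core ACAAT, also read on both strands, lay in the windows of Emcn and Robo4, against 28.3% of all promoters. The KLF core CACCC lay in those of Cldn5 (2 matches) and Eng (4 matches), against 51.3%. The last bases of the Emcn and Robo4 windows lie within the first exon of the longer gene models that the authors counted. These matches are descriptions of the letters and not of binding.

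The libraries held between 37360968 and 48827826 counted reads, and each of the 10 genes had between 457 and 6971 counts in every library. All 10 passed the filter on low counts, as did 19837 genes in all. The 13 endothelial markers outside the list, Kdr and Tie1 among them, were all detected, with a summed level of 430 to 564 CPM in the untreated and 434 to 457 CPM in the CCCP libraries. CPM is a count scaled to a common library size, here after TMM, a correction for library composition. Mesenchymal and pericyte markers summed to 3248 to 5692 CPM, above the endothelial sum in all 4 libraries, so the RNA is that of mixed tissue and not of sorted cells. In such bulk RNA, fewer endothelial cells and less RNA per cell cannot be told apart. Hepatic markers summed to 976 to 1705 CPM in the untreated and 53.4 to 107 CPM in the CCCP libraries. Megakaryocyte and platelet markers, from cells that also carry Pecam1 and Esam, summed to 93.5 to 134 and 53.3 to 99.2 CPM. Erythroid markers summed to 2465 to 3126 and 2688 to 4728 CPM, and leukocyte and macrophage markers to 205 to 289 and 283 to 286 CPM. The part of these cells in the levels below was not tested.

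No difference between CCCP and untreated explants was called for any of the 10 genes. In the quasi-likelihood test of edgeR, adjusted by Benjamini-Hochberg over all 19837 genes, 0 of the 10 had an adjusted p-value under 0.05, and the share over all genes was 0%. DESeq2 also called 0 of the 10, against 2.99% of all genes. At an unadjusted p under 0.05 edgeR had 0 of the 10, against 14.6% of all genes, made up of 5.45% higher and 9.16% lower in CCCP. The log2 fold changes lay between -0.24 and 0.25, with a median of -0.02, against a median of -0.01 over all genes tested. The 95% intervals of all 10 lay between 2-fold lower and 2-fold higher, the widest bounds being -0.76 for Nos3 and 0.83 for Robo4.

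**Figure D1:**
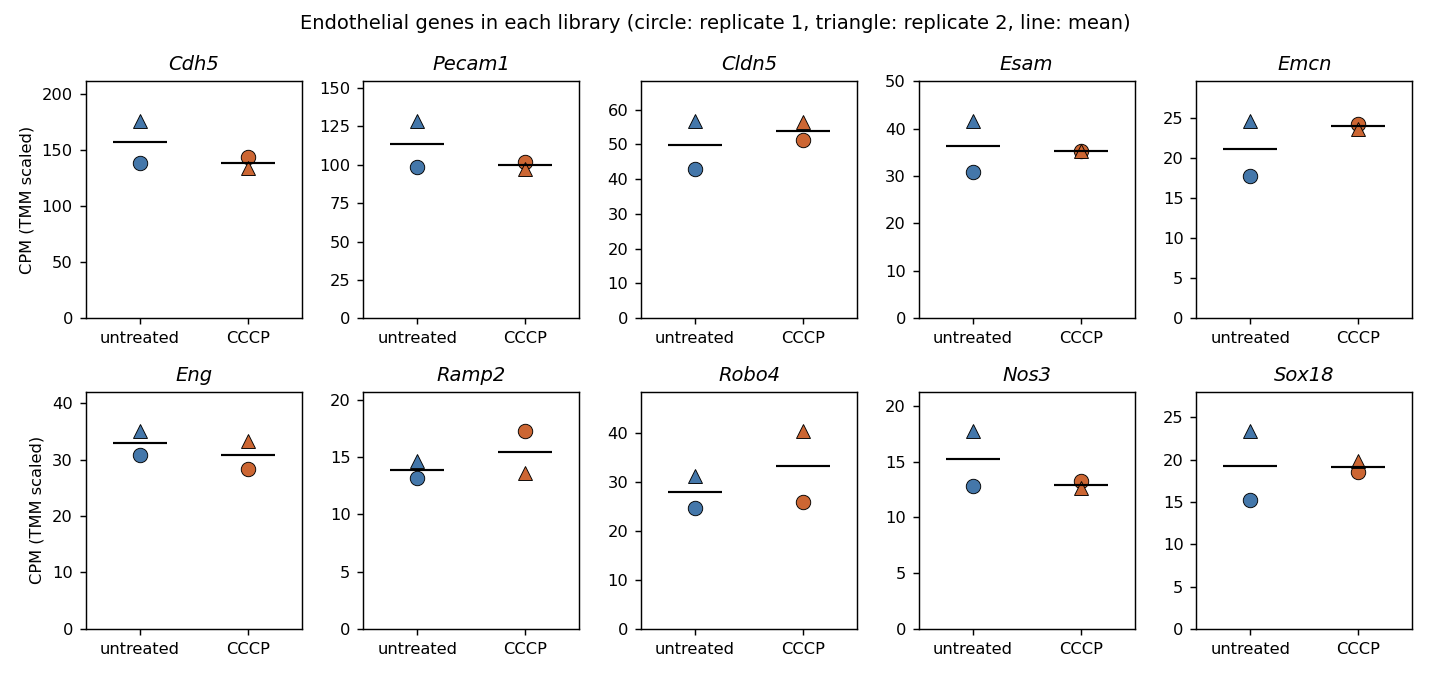
Level of each gene in CPM (linear axis from 0, TMM scaled) in the 2 untreated (blue) and 2 CCCP (orange) libraries; circles are replicate 1, triangles replicate 2 and lines the group means. The groups overlap in every panel, and untreated replicate 2 lies above untreated replicate 1 for all 10 genes.

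Among the junction genes, Cdh5 (chromosome 8, 104101613 to 104144504) encodes VE-cadherin, the adhesion receptor of the endothelial adherens junction. It had 138 and 177 CPM without CCCP and 144 and 134 CPM with it, replicates 1 and 2 in each. Untreated replicate 2 was high, and the other 3 libraries were close to each other. The means were 157 ± 27.1 and 139 ± 6.61 CPM (SD, n = 2). The log2 fold change was -0.18 (standard error 0.15), and its adjusted p in edgeR was 0.597. Pecam1 (chromosome 11, 106654213 to 106715281) encodes CD31, an immunoglobulin-type adhesion molecule at cell borders. Its levels were 98.7 and 129 CPM without and 102 and 97.3 CPM with CCCP, the same order of libraries as for Cdh5. The means were 114 ± 21.4 and 99.6 ± 3.24 CPM (SD, n = 2). The log2 fold change was -0.19, and its adjusted p of 0.583 in edgeR was the lowest of the 10.

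Cldn5 (chromosome 16, 18776847 to 18778262), which seals endothelial tight junctions, had 42.8 and 56.8 CPM without and 51.2 and 56.5 CPM with CCCP. Untreated replicate 1 was the low library, and both CCCP levels fell between the untreated levels. This gave a log2 fold change of 0.11 (adjusted p = 0.773 in edgeR). The annotation places this gene on chromosome 16 and again on an alternate contig, so reads that fit both places could have been lost, and the deposited exon length of 2832 bases counts both copies of a 1416-base exon.

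Esam (chromosome 9, 37528089 to 37538319), an adhesion molecule of endothelial tight junctions and platelets, had 30.9 and 41.7 CPM without CCCP. With CCCP it had 35.3 and 35.4 CPM, between the untreated levels. The means of 36.3 ± 7.61 and 35.4 ± 0.0236 CPM (SD, n = 2) gave a log2 fold change of -0.04 (edgeR adjusted p-value 0.936). The spread within the untreated group was thus far wider than the gap between the group means.

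Among the surface glycoproteins and receptors, Emcn (chromosome 3, 137341062 to 137431069) encodes endomucin, a sialomucin of venous and capillary endothelium and of haemogenic clusters. It had 17.7 and 24.7 CPM without and 24.4 and 23.7 CPM with CCCP. Untreated replicate 1 stood below the other 3 libraries. The log2 fold change was 0.18 (standard error 0.197; adjusted p = 0.686 in edgeR). Eng (chromosome 2, 32646595 to 32682669) encodes endoglin, a co-receptor for BMP9 and TGF-beta. Its levels were 30.9 and 35.03 CPM without and 28.3 and 33.2 CPM with CCCP, so that replicate 2 was the higher library in both groups. Eng stood at a log2 fold change of -0.10 (edgeR adjusted p-value 0.779). Its exons share 61 bases with those of Fpgs on the opposite strand.

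Ramp2 (chromosome 11, 101246334 to 101248250) encodes the protein that makes the calcitonin receptor-like receptor respond to adrenomedullin. It had 13.2 and 14.7 CPM without and 17.3 and 13.6 CPM with CCCP. CCCP replicate 1 was the high library, and the group means were 13.9 ± 1.07 and 15.4 ± 2.58 CPM (SD, n = 2). Ramp2 thus had a log2 fold change of 0.15, with adjusted p = 0.742 in edgeR.

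Robo4 (chromosome 9, 37401902 to 37414023), an endothelial Roundabout receptor that stabilizes vessels, had 24.8 and 31.2 CPM without and 26.0 and 40.3 CPM with CCCP. Only CCCP replicate 2 stood above the untreated levels. The means were 28.0 ± 4.53 and 33.2 ± 10.1 CPM (SD, n = 2), and the log2 fold change was 0.25 (standard error 0.24; adjusted p = 0.65 in edgeR). Without CCCP replicate 2 the log2 fold change was -0.10. Robo4 and Esam lie 114065 bases apart on chromosome 9, with 2 annotated genes between them. The high level of Robo4 in CCCP replicate 2 was not seen in Esam, whose 2 CCCP libraries were alike.

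Nos3 (chromosome 5, 24364816 to 24384474) encodes endothelial nitric oxide synthase, the enzyme by which blood flow acts on vessel tone and on blood stem cell emergence. It had 12.8 and 17.7 CPM without and 13.2 and 12.6 CPM with CCCP. Untreated replicate 2 was again the high library. The log2 fold change of -0.24 (standard error 0.215, edgeR adjusted p-value 0.625) was the most negative of the 10. The exons of Nos3 share 294 bases with those of Atg9b and 561 bases with those of Gm15587, both on the opposite strand. Reads in shared stretches are dropped when strand is not used, so reads of Nos3 itself are missed there. Atg9b held 29 to 62 counts per library.

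Sox18 (chromosome 2, 181669837 to 181671640), a SoxF transcription factor of endothelial and early lymphatic cells, had 15.2 and 23.3 CPM without and 18.5 and 19.9 CPM with CCCP. The untreated libraries thus lay on either side of both CCCP libraries, and the means were 19.3 ± 5.73 and 19.2 ± 0.986 CPM (SD, n = 2). The log2 fold change was -0.01 and the edgeR adjusted p-value 0.993.

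The gap between the untreated libraries was larger than the difference between the groups for 10 of the 10 genes. The share of all genes for which this holds was not counted, so it is not known whether the 10 stand out. Untreated replicate 2 exceeded untreated replicate 1 in all 10, by a median of 0.40 on the log2 scale. The same gap had a median of 0.00136 over all genes tested, a value that the TMM scaling holds near 0. How many of all genes had a gap of this direction or size was not counted. The gap was widest for Sox18 (0.61) and Emcn (0.48) and narrowest for Ramp2 (0.16) and Eng (0.18). Between the CCCP libraries, 5 genes were higher in replicate 1 and 5 in replicate 2, with a median gap of -0.02. Untreated replicate 2 was the highest of the 4 libraries for 8 genes, all but Ramp2 and Robo4, and untreated replicate 1 was the lowest for 6. Untreated replicate 2 also had the highest sum of the 13 other endothelial markers (564 CPM) and the lowest sum of the mesenchymal and pericyte markers (3248 CPM), and whether tissue composition accounts for the gap was not tested.

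**Figure D2:**
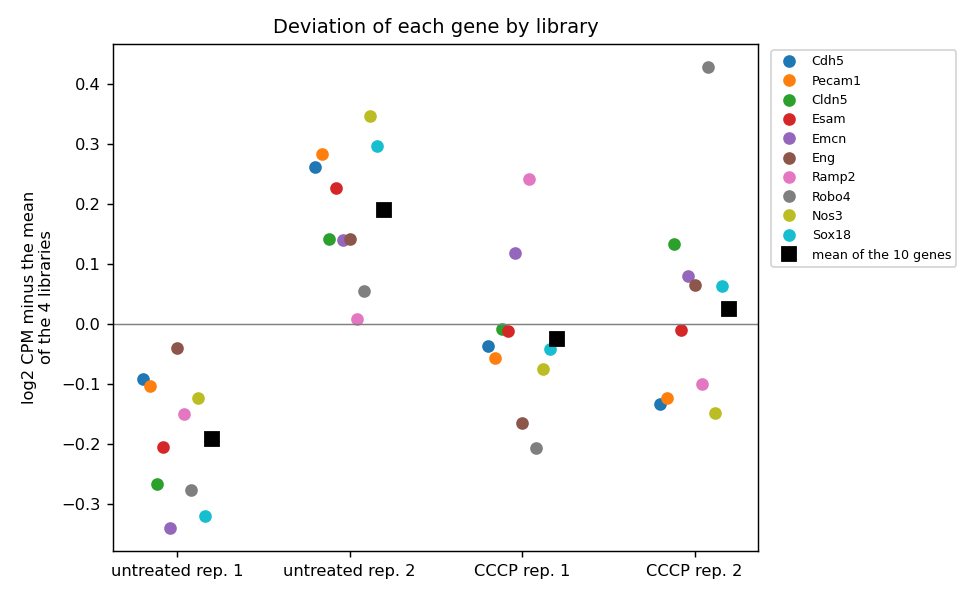
Log2 CPM of each gene minus its own mean over the 4 libraries, by library; coloured circles are single genes and black squares the mean of the 10. All 10 genes lie below 0 in untreated replicate 1 and above 0 in untreated replicate 2, while the CCCP libraries scatter on both sides, with Robo4 highest at 0.43 in CCCP replicate 2.

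The sign of the comparison depended on which library was left out. Without CCCP replicate 1 it changed for 3 of the 10, Eng (0.0174), Ramp2 (-0.0258) and Sox18 (0.0496). Without CCCP replicate 2 it changed for Robo4 (-0.0959). Without untreated replicate 2 all 10 genes were above 0, with a median log2 fold change of 0.24, and 2 of them, Cldn5 (0.36) and Emcn (0.47), had an unadjusted p under 0.05, against 12.4% of all genes on the higher side. Without untreated replicate 1, 8 of the 10 were below 0, with a median of -0.20, and Cdh5 (-0.34) and Pecam1 (-0.36) had an unadjusted p under 0.05, against 7.16% of all genes on the lower side. No gene of the 10 was called in any of these fits, with edgeR adjusted p-values of 0.199 and above.

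**Figure D3:**
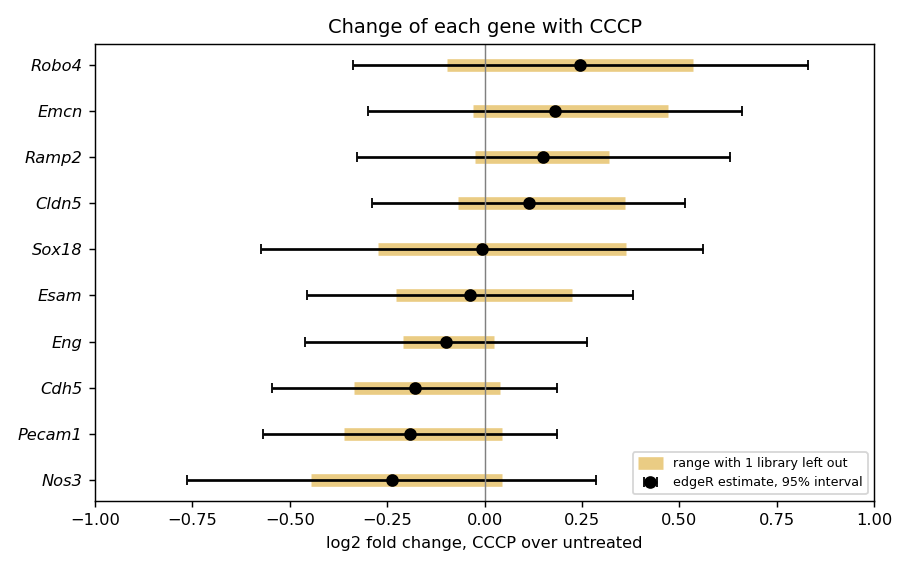
Log2 fold change of each gene, CCCP over untreated: points are edgeR estimates, black bars their 95% intervals, and yellow bands the range when 1 of the 4 libraries is left out. Every interval and every band crosses 0, and all intervals stay between -1 and 1.

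The 2 CCCP libraries did not lie wholly above or below both untreated libraries for any of the 10 genes, while this held for 48.8% of all genes (24% higher and 24.8% lower). That count rested on the scaling. With library size alone in place of TMM, Cdh5, Pecam1, Eng and Nos3 lay below both untreated libraries, 4 of the 10 against 28.6% of all genes. The margins were small: Cdh5 had 144 and 177 CPM without and 143 and 130 CPM with CCCP, and Eng had 32.093 in untreated replicate 1 and 32.083 in CCCP replicate 2. With a trend of exon length removed, the 4 below were Pecam1, Cldn5, Esam and Sox18, against 21.2% of all genes. With a trend of GC content removed, the 5 below were Cdh5, Pecam1, Esam, Eng and Nos3, against 22.9%, and Emcn lay above, against 24.7%. The log2 fold changes then ran from -0.40 for Nos3 to 0.47 for Emcn, with a median of -0.17, where the median of all genes was 0.00695. Pecam1 was the only gene of the 10 that lay below under all 3 of these, and none of the 10 was called by edgeR under any of them. In either direction the shares of all genes were 48.3% with library size alone, 45.9% with the length trend removed and 47.7% with the GC trend removed, against 4, 4 and 6 of the 10.

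Levels between genes were compared as CPM per kilobase of exon. In the untreated libraries Cdh5 was first at 39.0 ± 6.70, followed by Cldn5 at 35.2 ± 6.98 and Pecam1 at 34.1 ± 6.41 (SD, n = 2), and these 3 overlapped. Esam (19.5 ± 4.08), Ramp2 (16.0 ± 1.23), Emcn (14.4 ± 3.35), Sox18 (11.9 ± 3.54) and Eng (9.23 ± 0.821) followed, each overlapping the next. Robo4 (6.97 ± 1.13) and Nos3 (3.68 ± 0.839) came last. Gaps without overlap between the untreated libraries lay between Pecam1 and Esam, between Eng and Robo4 and between Robo4 and Nos3. In the CCCP libraries Cldn5 stood first, at 38.0 ± 2.62, above Cdh5 at 34.4 ± 1.64. Cldn5 was above Cdh5 in both CCCP libraries and below it in both untreated libraries. Among the 10 genes, the RNA of Cdh5, Cldn5 and Pecam1 thus had the highest levels per length, and that of Nos3 the lowest. The lengths count all exon bases, though reads of Nos3 and Eng in stretches shared with other genes are dropped. Reads of Cldn5 could also have been lost, and no level was corrected for this.

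Set against the 13 other endothelial markers instead of the whole library, Cdh5 and Pecam1 moved little. Cdh5 stood at 32.1% and 31.3% of the marker sum in the untreated and at 31.5% and 30.9% in the CCCP libraries. Pecam1 stood at 22.9% and 22.8% without and at 22.3% and 22.4% with CCCP. Untreated replicate 2 was not the highest library for either gene on this scale, and both CCCP values of Pecam1 lay below both untreated values. Cldn5 stood at 9.96% and 10.1% without and at 11.2% and 13.0% with CCCP, above both untreated values. Esam (7.19% and 7.39% against 7.74% and 8.15%), Emcn (4.12% and 4.38% against 5.33% and 5.47%) and Ramp2 (3.06% and 2.60% against 3.78% and 3.14%) also lay above, which makes 4 of the 10, against 31.7% of all genes. Nos3 (2.98% and 3.14% against 2.90% and 2.90%) lay below, as Pecam1 did, which makes 2 of the 10, against 12.1% of all genes. In either direction 6 of the 10 lay apart, against 43.8% of all genes. With TMM scaling the 13 markers themselves had a median log2 fold change of -0.16, with 8 below 0 and 5 above. Of the 13, 6 lay below and 1 above both untreated libraries, against 24.8% and 24% of all genes. A lower marker sum raises every gene on the marker scale, and its part in these shares was not tested. On this scale the log2 fold changes ran from -0.08 for Nos3 to 0.41 for Robo4, with 7 of 10 above 0 and a median of 0.15, where the median of all genes was 0.12. None was called, the lowest edgeR adjusted p-value being 0.64.

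Related genes were read from lists by role, and 20 of them are named below, none of which edgeR called. Those calls rested on the settings: without the filter on low counts edgeR called 7 of the 20, namely Ptprb, Bmpr2, Slit2, Prkg1, Prox1, Flt1 and Lyve1, with adjusted p-values of 0.000523 to 0.0470. The 20 were named for the lowest p-values in these same libraries, so groups that lie apart among them are no separate support. Over all genes, 24% lay above and 24.8% below both untreated libraries. At an unadjusted p under 0.05 in edgeR, 5.45% of all genes were higher and 9.16% lower. Of the 26 junction partners, which include the catenins, zonula occludens proteins and gap junction subunits, all passed the filter and 0 were called by edgeR. At an unadjusted p under 0.05, 1 was higher and 3 lower, and the median log2 fold change was -0.03. The lowest p-value belonged to Ptprb, the phosphatase VE-PTP, which binds VE-cadherin and limits its phosphorylation. Ptprb had 26.3 and 25.3 CPM without and 16.5 and 15.9 CPM with CCCP. Both CCCP libraries lay below both untreated ones. Its difference was -0.67 on the log2 scale (standard error 0.148), with an adjusted p of 0.195 in edgeR and 0.0210 in DESeq2. Krit1, a stabilizer of junctions, stood at -0.48, and Nectin2 and Jup (plakoglobin) stood at 0.35 and 0.28, with edgeR adjusted p-values of 0.241 to 0.363. Nectin2 and Jup also serve epithelial junctions. The 11 epithelial markers were all above 0 (median 0.45; 264 to 394 CPM in sum without and 365 to 527 CPM with CCCP), though 8 were without untreated replicate 1 and 9 without CCCP replicate 2. Their part in these levels was not tested.

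Of the 32 genes that act with Eng, Ramp2, Robo4 or Emcn, 31 passed the filter, 0 were called by edgeR, and 0 were higher and 5 lower at an unadjusted p under 0.05 (median -0.04). Bmpr2, the type II receptor of the endoglin pathway, had 200.1 and 168 CPM without and 111 and 118 CPM with CCCP. The groups lay apart, with a log2 fold change of -0.69 and adjusted p-values of 0.166 in edgeR and 0.004 in DESeq2. Slit2, a Roundabout ligand, had 164 and 172 CPM without and 114 and 119 CPM with CCCP, again without overlap (-0.53, adjusted p-values of 0.184 in edgeR and 0.0207 in DESeq2). Of the genes above 0, the lowest p-values belonged to Id3, a BMP target (0.37), and Pxn, an adaptor of focal adhesions (0.23), with edgeR adjusted p-values of 0.359 and 0.456.

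The exons of Ptprb, Bmpr2 and Slit2 are long, at 12902, 11087 and 11872 bases, against 872 to 4151 bases for the 10 genes. Over the 19837 genes tested, longer exons came with lower fold changes (Spearman's rho -0.36 across genes, which share the same 4 libraries and are not independent replicates). With the length trend removed, Ptprb stood at -0.32, Bmpr2 at -0.37 and Slit2 at -0.20, with edgeR adjusted p-values of 0.343 to 0.585. Of the 3, a fit that also held the replicate number as a block called Bmpr2 (-0.37, edgeR adjusted p-value 0.0287). Higher GC content came with higher fold changes (Spearman's rho 0.37 across 17929 genes, again not independent). With the GC trend removed instead, Ptprb stood at -0.63, Bmpr2 at -0.41 and Slit2 at -0.42, with edgeR adjusted p-values of 0.338 to 0.409.

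In the nitric oxide pathway 27 of 27 genes passed the filter, and 0 were called by edgeR. At an unadjusted p under 0.05, 2 were higher and 3 lower, with a median of -0.12. Those with the lowest p-values were the kinase Akt1 (0.33), which phosphorylates the synthase, and Ddah2 (0.35), on the higher side. On the lower side were Prkg1 (-0.64), the cGMP-dependent kinase, and Cavin2 (-0.77), a caveolar coat protein. Their edgeR adjusted p-values lay between 0.258 and 0.316.

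Of the 23 SoxF, ETS and other endothelial transcription factors, 0 were called, and 0 were higher and 3 lower at an unadjusted p under 0.05 (median -0.06). Prox1, the factor of lymphatic fate, had 58.8 and 41.3 CPM without and 31.5 and 29.8 CPM with CCCP, a log2 fold change of -0.71 (edgeR adjusted p-value 0.23). Prox1 is also a factor of the early liver, whose 11 markers were all lower in both CCCP libraries, and their part in the level of Prox1 was not tested. Mef2c stood at -0.39, while Hey2 and Foxc2 stood at 0.22 and 0.20, with edgeR adjusted p-values of 0.287 to 0.674.

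The list of 32 other pan-endothelial genes had a median log2 fold change of -0.16. Of these, 22 were below 0, against 10086 of all 19837 genes. The 13 endothelial markers are all among the 32, and Sox7, Erg and Fli1 are also on the list of factors. With the filter, none was called by edgeR. At an unadjusted p under 0.05, 0 were higher and 6 lower, Erg among them. Lyve1, a hyaluronan receptor of lymphatic and sinusoidal endothelium and of some macrophages, had 6.97 and 6.50 CPM without and 1.96 and 3.56 CPM with CCCP. Both CCCP libraries were low, with a log2 fold change of -1.29 (standard error 0.347; adjusted p = 0.23 in edgeR and 0.0340 in DESeq2). Flt1, a VEGF receptor, stood at -0.59 (edgeR adjusted p-value 0.223), or -0.25 with the length trend removed, its exons being 13758 bases long. Plvap and Myct1 stood highest, at 0.26 and 0.28 (edgeR adjusted p-values 0.498 and 0.691). Whether these genes differed from the 10 junction and identity genes was not tested.

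The size of several of these values depended on 1 library. Leaving out a library moved 9 of the 20 named list genes by more than 1.5 times. Without untreated replicate 1, Plvap stood at 0.0765, Myct1 at -0.0115, Hey2 at 0.0669, Foxc2 at 0.0246, Id3 at 0.18, Pxn at 0.14, Nectin2 at 0.22 and Prox1 at -0.42. Without untreated replicate 2, Plvap stood at 0.51, Myct1 at 0.68, Hey2 at 0.44, Foxc2 at 0.43, Id3 at 0.63, Pxn at 0.36 and Nectin2 at 0.52. Jup stood at 0.17 without CCCP replicate 2, and without that library Foxc2 stood at 0.0400. Removal of the GC trend moved 13 of the 20 by as much, Mef2c to -0.10, Krit1 to -0.12, Jup to 0.12 and Foxc2 to 0.0120 among them, and removal of the length trend moved 12.

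**Figure D4:**
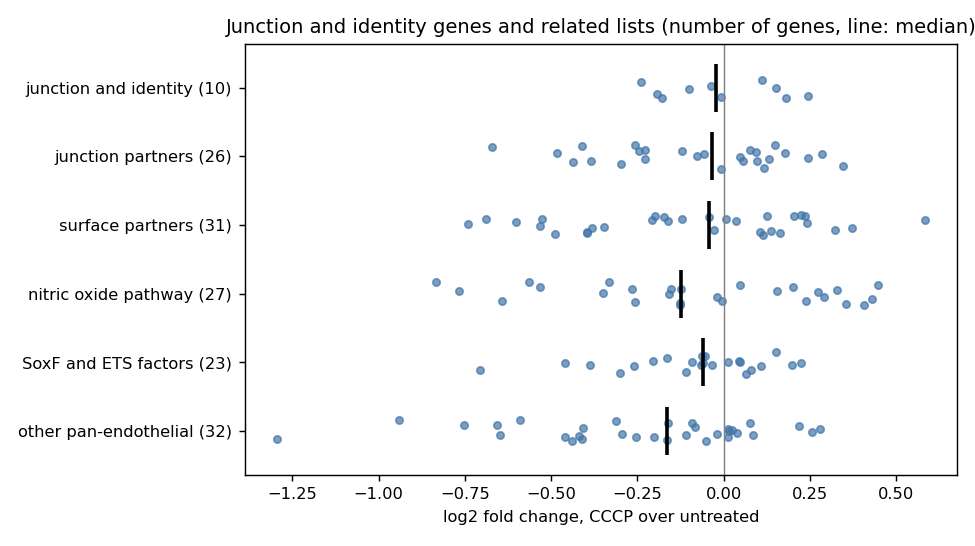
Log2 fold change, CCCP over untreated, of every tested gene in the 10 junction and identity genes and the 5 related lists; points are genes, the number in brackets is how many, and black lines are medians. The 10 genes lie between -0.24 and 0.25. The related lists, which hold more genes each, reach further on both sides, from -1.29 for Lyve1 to 0.58 for Adm2.

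The genes whose levels over the 4 libraries were most like the mean of the 10 were Mplkip, Lrrc40, Ggh, Nmd3 and Pbdc1. They were sought among 10483 genes with a mean of at least 10 CPM. Left out were the 10 themselves and symbols that start with Gm or LOC or end with Rik. Likeness was the root mean square difference in centred log2 CPM, which ran from 0.00543 for Mplkip to 0.0147 for Pbdc1. Mplkip had 16.8 and 21.8 CPM without and 18.9 and 19.7 CPM with CCCP, with both CCCP libraries between the untreated ones. Of the 10 genes Esam was the closest to their mean, at 0.0273, and Robo4 the farthest, at 0.235. With 4 libraries such a pattern is common: 10.2% of the genes compared were as close as the median of the 10.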

How the data were processed

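Poly(A) RNA of 4 explant libraries was sequenced from a directional kit, per the labels' protocols. The authors deposited raw counts of reads per gene, made with featureCounts 2.0.3 on the mm10 RefSeq annotation, per the file headers, with no strand option, no counting of pairs as fragments and no counting of reads shared by genes. HISAT2, SAMtools and FastQC are named, without versions, per the submitters' processing notes. The exon length per gene is also deposited; where a gene is placed on a chromosome and an alternate contig, only the chromosome was used here.

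Groups came from the sample titles. Counts were fitted over all genes with edgeR 4.0.16 (glmQLFit, glmQLFTest) in R 4.3.3: TMM scaling, filterByExpr (minimum count 10, minimum total 15), group as the sole term, two-sided, Benjamini-Hochberg adjustment, threshold 0.05. A standard error is the log2 fold change divided by the square root of F, and 95% intervals use the degrees of freedom of the fit. With 2 libraries per group no exact permutation test could pass the threshold. The fit was tested on simulated data. Total counts were 48216849 (untreated) and 48827826 (CCCP) in replicate 1, and 37360968 and 37579087 in replicate 2. They limit counting precision, and whether depth had a further part in the gap between replicates was not tested. Alternatives were no filter, DESeq2 1.42.0, its size factors in edgeR, library size alone, scaling to endothelial markers, a lowess length trend (span 0.3), the replicate block, and each library left out; removal of a GC trend (a value for 90.4% of genes) was chosen after seeing the data.

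The 10 genes and the lists were chosen with earlier results of these data known. Named genes were the 10, the 2 lowest p-values in each direction of each related list, and the 5 nearest patterns.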

Additional observations from a re-analysis of the deposited data

How the results depend on the processing

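None of the 10 genes was called by any of the 13 alternatives. Their median log2 fold change lay between -0.204 and 0.244 when single libraries were left out, and it moved by more than the spread between libraries only without untreated replicate 2. The number of the 10 at an unadjusted p under 0.05 was then 0 to 2. Leaving out single libraries gave Cdh5 -0.336 to 0.0394, Pecam1 -0.362 to 0.0453, Cldn5 -0.0685 to 0.361, Esam -0.228 to 0.225, Emcn -0.0311 to 0.471, Eng -0.209 to 0.0253, Ramp2 -0.0258 to 0.320, Robo4 -0.0959 to 0.535, Nos3 -0.446 to 0.0455 and Sox18 -0.275 to 0.363. Of the other named genes it gave Myct1 -0.0115 to 0.682, Ggh -0.161 to 0.241, Lrrc40 -0.168 to 0.219, Mplkip -0.172 to 0.226, Nmd3 -0.178 to 0.226 and Pbdc1 -0.185 to 0.255. The number of all genes called was 0 with TMM, with the size factors of DESeq2, with library size alone and with the length or GC trend removed. It was 1107 without the filter, 594 by DESeq2, 174 with scaling to endothelial markers and 10 to 46 without single libraries, and the cause was not tested. Genes of the 10 whose groups did not overlap numbered 4 with library size alone, 4 with the length trend removed and 6 with the GC trend removed (48.3%, 45.9% and 47.7% of all genes). On the scale of the endothelial markers they numbered 6 (43.8%). The counts with the GC trend removed and on the marker scale were chosen after seeing the data.

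The fit with the replicate block called 2118 genes, 0 of them among the 10 but 10 of the 20 named list genes (Ptprb, Krit1, Bmpr2, Slit2, Prkg1, Cavin2, Prox1, Mef2c, Flt1 and Lyve1, adjusted p-values of 0.00352 to 0.0489), and gave Sox18 0.0234, Lrrc40 0.0053, Mplkip 0.0070 and Nmd3 0.0044. The replicate block fitted after removal of the length trend called 1561, again 0 of the 10 but 7 of the 20 (Nectin2, Jup, Pxn, Bmpr2, Cavin2, Prox1 and Lyve1, 0.00998 to 0.0470), with Cldn5 at -0.0365 and Ramp2 at -0.0634. Same-numbered libraries deviated together (correlation 0.36 across 19837 genes). The labels do not say what a replicate number stands for, so the numbers are not taken as a pairing.

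The other changes of sign came with removal of the length trend (Cldn5 -0.0413, Ramp2 -0.047, Pbdc1 -0.0086) or of the GC trend (Cldn5 -0.0634, Ramp2 -0.0029, Lrrc40 0.305, Mplkip 0.334, Nmd3 0.358). Scaling to endothelial markers gave Eng 0.0497, Esam 0.125, Sox18 0.168, Lrrc40 0.153, Mplkip 0.154 and Nmd3 0.151. Without the filter Sox18 stood at 0.0057, Lrrc40 at 0.0072, Mplkip at 0.0082 and Nmd3 at 0.0049. Mplkip stood at 0.0005 in DESeq2 and 0.0002 with its size factors in edgeR, and library size alone gave Ggh -0.0468 and Pbdc1 -0.0543.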
